A study of Mus musculus with 12 samples.

Results

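Dnase1l3, a single gene of the 56941 in the count table, was followed through bulk RNAseq of sorted mouse peritoneal cavity (PerC) B cells. The gene was chosen by its counts, selected on a fall in KI MemB that was not seen in KI B2. That choice used its values in all 12 libraries, so its levels are described here and no test is given for them. B2 were sorted as IgD+IgM+ cells and MemB, class-switched memory B cells by this gate, as IgD-IgM- cells. With 2 genotypes (control and KI) and both cell types, this gave 4 groups with 3 libraries each. KI mice were Cd21-Cre animals with a Rosa26 allele that, once Cre removes a stop cassette, expresses GFP along with a gain-of-function form of GPR34 that lacks the end of its C-terminal tail. The study's mice were caged with littermates, and whether the controls carried Cre is not given in the sources used here. Cd21-Cre acts in mature B cells and does not recombine in every cell, so a KI library can hold cells without the allele. GPR34 is a receptor for lysophosphatidylserine, and the design asks what the KI allele does to gene expression in each cell type. The study's mice were adults, the age of these animals is not in the labels, and no pooling is mentioned.

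DNASE1L3 is a secreted endonuclease of the DNase I family, whose other members are DNASE1, DNASE1L1 and DNASE1L2. It differs from DNASE1 in that it can digest DNA that is still packed in chromatin or carried in the membrane particles that dying cells shed. Macrophages and dendritic cells are its best known sources. Loss of the enzyme in people and in mice is known for antibodies to DNA and lupus-like disease, in which B cells make the antibodies.

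In the GENCODE M39 annotation of GRCm39, the assembly that mm39 denotes, Dnase1l3 (ENSMUSG00000025279.8) lies on the + strand of chromosome 14, from 14475200 to 14505240. The gene has 2 annotated transcripts, 1 of them protein coding. The canonical transcript has 8 exons and encodes 310 residues. The merged exons of the gene, over its 2 transcripts, cover 5151 bases, the length used here wherever Dnase1l3 is set beside other genes. No annotated gene overlaps Dnase1l3 on either strand, so its counts are not shared with an overlapping transcript.

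Library totals ran from 29895068 to 39732124 counts, of which 29.3% to 38.3% fell on the 12S, 16S and 18S ribosomal RNA genes. Gpr34 checked the genotype labels, with 3.44 to 31.0 CPM (TMM-normalized counts scaled to library size) over the 6 control libraries and 101.1 to 169.5 CPM over the 6 KI libraries. Ighd, the IgD heavy chain gene, checked the sort, with 1306 to 1704 CPM in B2 and 66.9 to 253.1 CPM in MemB. Ighm, which encodes the IgM heavy chain, was not absent from MemB, with 2027 to 2706 CPM in control MemB and 299.4 to 569.6 CPM in KI MemB. In each group, replicate 3 had 91355 to 105564 counts of Xist, against 875 to 2175 in replicates 1 and 2, so it came from an animal of the other sex. Replicates are labelled as biological, and the 3 mice per genotype named in the series' text gave both cell types. Which B2 and MemB libraries came from the same mouse is not given in the sources used here. If each library came from 1 mouse, B2 and MemB replicate 3 of a genotype shared a mouse, being the only ones of that sex. All were fitted as separate libraries, which leaves such sharing out of the comparisons of MemB with B2.

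Dnase1l3 was highest in control MemB and lowest in KI MemB. Control MemB had 9522, 5320 and 3742 counts in replicates 1, 2 and 3, or 272.4, 157.1 and 112.9 CPM. KI MemB had 167, 385 and 495 counts, or 5.73, 11.9 and 16.2 CPM. The groups did not overlap, and the lowest control MemB library was 6.96-fold above the highest KI MemB library. Counting error was small even for the lowest of these counts. The 167 counts of KI MemB replicate 1 have an exact 95% Poisson interval of 142.6 to 194.3, which covers counting error only. Ddx3y, a Y chromosome gene, still had 68 to 81 counts in replicate 3, beside 1372 to 4047 in replicates 1 and 2. Whether counts were carried over between libraries, and so add to the lowest Dnase1l3 counts, was not tested. Control B2 had 77.2, 116.5 and 29.7 CPM and KI B2 had 47.5, 42.9 and 89.9 CPM. These 2 groups overlapped, and KI B2 replicate 3 lay above 2 of the control B2 libraries.

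Mean Dnase1l3 levels were 180.8 ± 82.4 CPM (SD, n = 3) in control MemB, 74.5 ± 43.4 in control B2, 60.1 ± 25.9 in KI B2 and 11.3 ± 5.27 in KI MemB. In this order, control MemB and control B2 met at their edges, since the lowest control MemB library was 0.969 times the highest control B2 library. Control B2 and KI B2 did not differ beyond their spread. KI MemB stood below every other library, and the lowest of the 6 B2 libraries was 1.83-fold above the highest KI MemB library. Within groups, the highest library exceeded the lowest by 3.92-fold in control B2, by 2.83-fold in KI MemB and by 2.41-fold in control MemB.

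**Figure D1:**
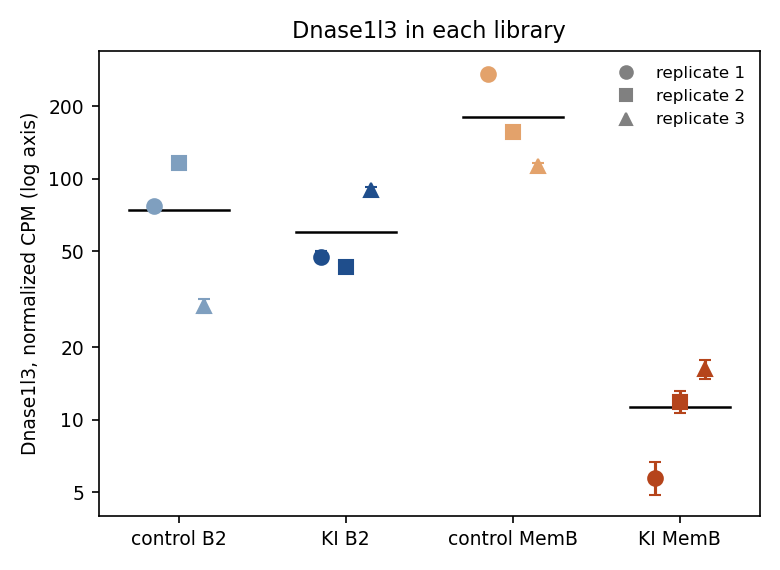
Dnase1l3 in each of the 12 libraries, as normalized CPM on a log axis, by group; points are libraries, their shape gives the replicate number, error bars are exact 95% Poisson intervals of the counts and lines are group means. KI MemB libraries sit between 5.73 and 16.2 CPM and control MemB libraries between 112.9 and 272.4 CPM, while the B2 groups overlap.

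In the model of all 12 libraries, the Dnase1l3 log2 fold change of KI against control was -4.0 (SE 0.50) in MemB, or 16.0-fold lower. In B2 it was -0.31 (SE 0.44). The difference between these effects was -3.69 (SE 0.65). Among control libraries MemB stood above B2 by 1.28 (SE 0.45) on the log2 scale, or 2.43-fold. Among KI libraries the order turned, and MemB stood below B2 with a log2 fold change of -2.41 (SE 0.47), or 5.33-fold lower. Thus the gene was higher in MemB than in B2 in control mice and lower in MemB than in B2 in KI mice. These contrasts share libraries and are not independent of each other.

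The biological coefficient of variation of Dnase1l3 between replicates was 41.0%, against a common value of 91.3%, and 16.1% of genes tested had a lower one. Over all 14933 genes tested, 6.27% had every KI MemB library below every control MemB library, as Dnase1l3 had. For KI MemB below KI B2, this share was 7.7%. Since these contrasts chose the gene or share its libraries, nothing is read from these values for Dnase1l3.

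Replicate 3, from the other sex, bears on the B2 comparison. In B2, KI over control Dnase1l3 was 0.615 between replicates numbered 1, 0.368 between those numbered 2 and 3.02 between those numbered 3. In MemB, control over KI was 47.5, 13.2 and 6.96 in the same order, so KI was lower within each number. A number shared by a KI and a control library does not mean a shared mouse. Without replicate 3 in any group, the Dnase1l3 log2 fold change was -1.09 in B2 and -4.60 in MemB. Without control B2 replicate 2 alone, the B2 value was 0.17, so the direction in B2 rested on that library.

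The position of Dnase1l3 among expressed genes was compared per length, as counts per base of exon scaled to a common library total. On this scale the gene averaged 159.8 ± 67.8 (SD, n = 3) in control MemB, 69.0 ± 39.6 in control B2, 59.2 ± 24.8 in KI B2 and 10.6 ± 4.89 in KI MemB. In control MemB it ranked above 94.1% to 97.8% of the genes with any count. In KI MemB it ranked above 47.0% to 64.0% of them, near the middle. B2 libraries ran from 76.2% to 94.3%, above KI MemB, with control B2 replicate 2 just above the lowest control MemB library. Dnase1l3 thus went from among the more abundant transcripts of control MemB to a middling level in KI MemB, and each KI MemB library still held counts of it. Whether part of these low counts was carried over from other libraries was not tested.

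Other DNase I family genes had fewer counts than Dnase1l3 in every library but KI MemB replicate 1, where Dnase1 (353) and Dnase1l1 (448) exceeded its 167. On the per-length scale a family gene stood above Dnase1l3 in 5 of the 12 libraries, the 3 KI MemB libraries, KI B2 replicate 1 and control B2 replicate 3. Dnase1, the founding secreted member, had 4 to 430 counts per library. Dnase1l1 had 42 to 811 counts and Dnase1l2 had 4 to 818. In MemB, KI against control gave log2 fold changes of 0.73 (SE 1.53) for Dnase1, 1.13 (SE 0.92) for Dnase1l1 and -1.64 (SE 1.47) for Dnase1l2, with edgeR adjusted p of 0.927, 0.705 and 0.750. In B2 the values were -0.41, 0.07 and 1.29, and none passed the test. As libraries were left out, these values ranged widely. In MemB they ran from 0.17 to 4.03 for Dnase1, 0.56 to 1.67 for Dnase1l1 and -3.37 to 3.31 for Dnase1l2. In B2 they ran from -1.87 to 3.59, -0.45 to 0.79 and 0.44 to 2.02 in the same order. Across all comparisons neither edgeR nor DESeq2 called any of the 3, and none had an unadjusted edgeR p below 0.05.

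Dnase1l3 took 95.2%, 69.2% and 82.2% of the summed per-length level of the DNase I family in control MemB replicates 1, 2 and 3. In KI MemB it took 9.81%, 31.5% and 27.1%. All KI MemB shares lay below all control MemB shares. Mean shares in control B2 and KI B2 were 60.3% ± 26.7 (SD, n = 3) and 51.6% ± 8.37. These shares use the Dnase1l3 values by which the gene was picked, and they carry no test.

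**Figure D2:**
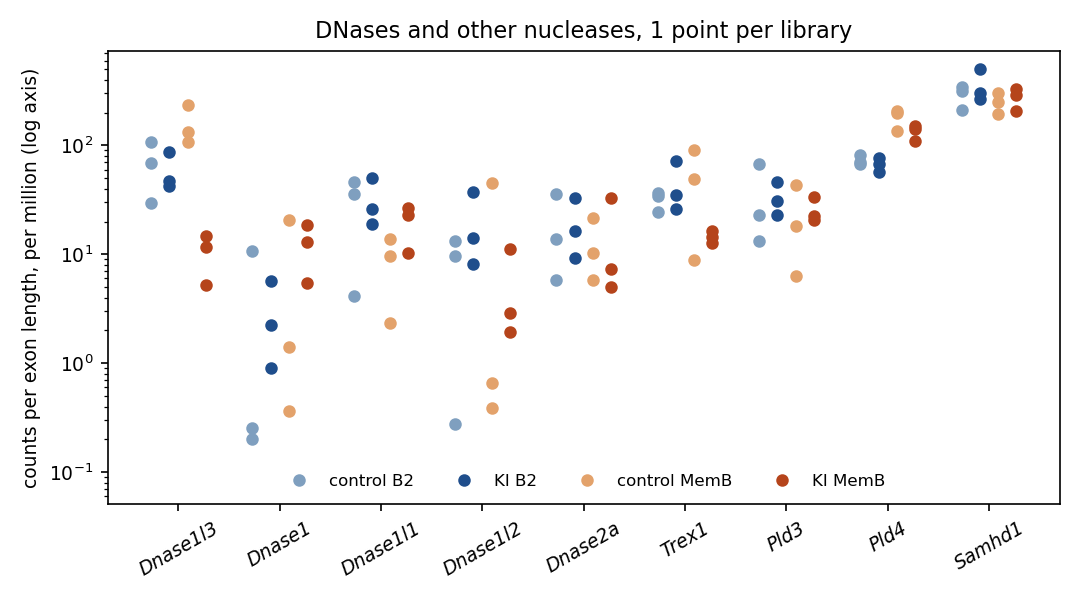
Per-length level of Dnase1l3, other DNase genes, Trex1, Pld3, Pld4 and Samhd1 in the 4 groups. Levels are counts per base of exon scaled to a common library total, on a log axis, and each point is a library. Dnase1l3 averages 159.8 in control MemB and 10.6 in KI MemB, whereas Pld4 lies between 57.2 and 205.0 and Samhd1 between 193.2 and 501.1 over all 12 libraries.

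Other nuclease genes and genes related to them, which act mostly in other compartments, were set beside Dnase1l3. Of the 19 genes on this list, which also holds Dffa, Ern1, Fen1 and Apex1, 17 could be tested, and Dnase2b and Trex2 had no counts. None was called between KI and control in MemB or in B2 by edgeR or DESeq2, and 0 had an unadjusted edgeR p below 0.05. The median log2 fold change of the 17 in MemB was 0.26, beside -0.03 over all genes tested, and that of Dnase1l3 was -4.0. Samhd1, which breaks down deoxynucleotides, was the most abundant, at 494.3 CPM in control MemB and 531.3 CPM in KI MemB. Rnaset2b, a lysosomal ribonuclease gene, had a log2 fold change of 0.66 (SE 0.42, edgeR adjusted p = 0.590) in MemB. Trex1, the cytosolic exonuclease, had 23.4, 2.33 and 11.5 CPM in control MemB and 3.57, 3.70 and 3.11 CPM in KI MemB. Its log2 fold change of -1.84 (SE 1.04) did not pass the test (edgeR adjusted p = 0.529), and its groups overlapped. Dnase2a, the lysosomal DNase, had a log2 fold change of 0.26 (SE 0.78, edgeR adjusted p = 0.954).

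Pld4, an endolysosomal exonuclease of single-stranded nucleic acid, shared with Dnase1l3 the higher level in control MemB than in control B2. It had 228.5, 154.1 and 200.8 CPM in control MemB and 72.3, 85.4 and 69.5 CPM in control B2. This rise passed the test, with a log2 fold change of 1.36 (SE 0.29, edgeR adjusted p = 0.0253), and it was higher in each of the 3 control MemB libraries. The call was lost without control B2 replicate 1, 2 or 3 and without control MemB replicate 1 or 3 (log2 fold changes of 1.24 to 1.45, edgeR adjusted p from 0.0693 to 0.144), and without replicate 3 of each group (1.29, edgeR adjusted p = 0.311). KI MemB had 117.7, 149.6 and 151.0 CPM of Pld4, each below the lowest control MemB library, and KI against control MemB gave -0.48 (SE 0.29, edgeR adjusted p = 0.563). Pld4 thus shared the MemB over B2 order of Dnase1l3 in control mice, and in KI MemB its libraries stayed above all 6 B2 libraries, where those of Dnase1l3 lay below them. The difference between these genes was not tested, since Dnase1l3 was chosen for its fall.

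Genes of the receptors and adaptors that sense nucleic acid inside cells, and so bear on the response to undigested DNA, were also listed. Of 24 listed genes, 23 were tested and none was called in any comparison by edgeR or DESeq2. In MemB 3 of them had an unadjusted edgeR p below 0.05, and in B2 1 had, against 1651 and 856 of all 14933 genes tested. Tlr9, the endosomal receptor for DNA, had 95.5, 62.3 and 68.7 CPM in control MemB and 99.0, 62.6 and 50.7 CPM in KI MemB, with a log2 fold change of -0.09 (SE 0.37, edgeR adjusted p = 0.967). Tlr7, the receptor for RNA, had -0.46 (SE 0.43, edgeR adjusted p = 0.771). Unc93b1, which carries both receptors to endosomes, had 0.10 (SE 0.26, edgeR adjusted p = 0.945). Slc15a4, a lysosomal transporter needed for signalling by these receptors, had 1.11 (SE 0.39, edgeR adjusted p = 0.319).

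**Figure D3:**
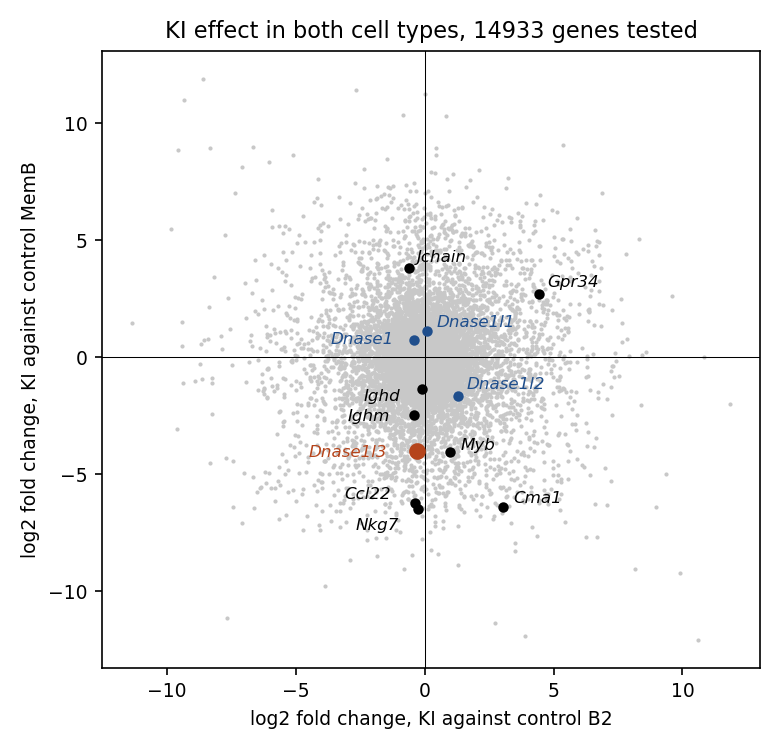
Log2 fold change of KI against control in B2 (horizontal axis) and in MemB (vertical axis) for the 14933 genes tested (grey), with Dnase1l3 in red, other DNase I family genes in blue and named listed genes in black. Dnase1l3 lies at -0.31 and -4.0, and Gpr34 lies at 4.42 and 2.72.

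Markers of other cells were summed in each library because a sort can hold more than one kind of cell. In bulk samples, fewer cells of a type and less RNA per cell cannot be told apart. B cell identity genes such as Ms4a1, Cd79a and Cd79b summed to 4046 to 4695 CPM over all 12 libraries. None of the 10 was called in any comparison by edgeR or DESeq2. For KI against control MemB 1 had an unadjusted edgeR p below 0.05, against 1651 of all 14933 genes tested. Per 100 CPM of these genes, Dnase1l3 averaged 4.25 in control MemB and 0.264 in KI MemB, with 1.62 in control B2 and 1.36 in KI B2.

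Among macrophage markers, 10 of 18 had no count in any library, among them Cd14, C1qa, Mertk, Fcgr1 and the peritoneal macrophage factor Gata6. Summed macrophage marker levels nevertheless stood higher in control MemB than in KI MemB or control B2, as Dnase1l3 did on average, though not in the same order over the 4 groups, at 46.1 to 77.6 CPM in control MemB, 17.6 to 25.7 in KI MemB, 29.4 to 38.4 in control B2 and 6.79 to 30.4 in KI B2. Apoe and Cd68 led these sums, and neither edgeR nor DESeq2 called any of the 4 markers tested. For KI against control MemB 1 of the 4 had an unadjusted edgeR p below 0.05, against 1651 of all 14933 genes tested. The part of these cells in the Dnase1l3 difference was not tested beyond these values. Conventional dendritic cell markers summed to 35.1 to 197.7 CPM in control MemB and to 79.5 to 124.1 CPM in KI MemB, so these groups overlapped. Of the 7 tested, 5 had positive log2 fold changes in MemB (median 0.36). edgeR and DESeq2 called Ccl22 alone, a chemokine gene that was lower in KI MemB, as Dnase1l3 was. Ccl22 had 6.38, 1.06 and 90.6 CPM in control MemB and 0.515, 0.494 and 0.295 CPM in KI MemB (log2 fold change -6.22, SE 1.41, edgeR adjusted p = 0.0390). That call was lost without any of the KI MemB libraries, without control MemB replicate 3 (-3.09, edgeR adjusted p = 0.570) and without replicate 3 of each group (-2.86, edgeR adjusted p = 0.693). For MemB against B2, 5 of the 7 tested had positive log2 fold changes in control (median 4.34) and 5 had in KI (median 2.60). Dnase1l3 was higher in MemB than in B2 in control only. edgeR called Ccl22 and Fscn1 in control, of 40 genes called in all, and Batf3 and Fscn1 in KI, of 54. Each of these calls was lost in some fits with libraries left out. Ccl17 reached at most 1 count, and Xcr1 and Clec9a averaged 0.512 and 0.350 CPM in control MemB. Plasmacytoid dendritic cell markers summed to 29.6 to 76.7 CPM in control MemB and 59.3 to 132.9 CPM in KI MemB, so these groups overlapped too, with Klk1 and Cox6a2 at no count in any library.

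Summed T and NK cell markers moved with Dnase1l3 between the MemB groups, at 76.5 to 219.7 CPM in control MemB and 8.96 to 50.9 CPM in KI MemB, and stood at 21.1 to 57.2 CPM in control B2 and 28.8 to 60.7 CPM in KI B2. For MemB against B2, 9 of the 9 tested had positive log2 fold changes in control (median 1.53) and 1 of 9 had in KI (median -1.53), the turn that Dnase1l3 also took. edgeR called none of these, where it called 40 and 54 genes in all. An unadjusted edgeR p below 0.05 was found for 2 and 4 of them, against 1584 and 1578 of all 14933 genes tested. DESeq2 called 1 and 2 of them, against 392 and 393 genes in all. For KI against control, all 9 of those tested had negative log2 fold changes in MemB. An unadjusted edgeR p below 0.05 was found for 7, against 1651 of all 14933 genes tested. Only Nkg7 was called (-6.48, SE 1.46, edgeR adjusted p = 0.0376), where edgeR called 42 genes in all. The Nkg7 call was lost without control MemB replicate 1 or 2 or without any of the KI MemB libraries (log2 fold changes of -6.61 to -5.40, edgeR adjusted p from 0.0893 to 0.297). DESeq2 called 4 of the 9, against 471 genes in all. Mast cell markers summed to 1.57, 45.5 and 246.1 CPM from the lowest to the highest control MemB library and to 0.852 to 1.78 CPM in KI MemB. All 3 mast cell markers tested had negative log2 fold changes in MemB with an unadjusted edgeR p below 0.05, and Cma1, a mast cell protease gene, was called (-6.4, SE 1.41, edgeR adjusted p = 0.0376). The Cma1 call was lost without any one of the MemB libraries except control MemB replicate 2, without any of the control B2 libraries and without replicate 3 of each group (-6.64 to -4.67, edgeR adjusted p from 0.0736 to 0.460). The KI against control MemB calls of Ccl22, Nkg7 and Cma1 were also lost in the non-robust fit, with the replicate number as a block and in a fit of the 6 MemB libraries alone. The control MemB library with 1.57 CPM of mast cell markers was replicate 2, which had 157.1 CPM of Dnase1l3. KI B2 had up to 77.7 CPM of mast cell markers in replicate 3, with 89.9 CPM of Dnase1l3. Whether T, NK or mast cell RNA had a part in the Dnase1l3 difference was not tested.

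Summed B-1 cell genes stood higher in MemB than in B2, and lower in KI MemB than in control MemB, at 995.0 to 1138 CPM in control MemB, 715.0 to 774.2 in KI MemB, 345.6 to 425.7 in control B2 and 263.5 to 394.5 in KI B2. B-1 cells are the self-renewing B cells of the peritoneal cavity, and most carry IgM. Of the 12 listed, all had positive log2 fold changes for MemB against B2 in control and 7 had in KI. edgeR called 2 in each, against 40 and 54 of all 14933 genes tested. In control the call of Spn was lost in 7 fits with libraries left out (edgeR adjusted p from 0.0542 to 0.390). In KI it was lost without replicate 3 of each group (edgeR adjusted p = 0.0608). For KI against control, 10 of the 12 had negative log2 fold changes in MemB. An unadjusted edgeR p below 0.05 was found for 6, against 1651 of all 14933 genes tested, and 1 was called, against 42 in all. That gene was Myb, a transcription factor of progenitors and some lymphocytes, with 70.8, 39.9 and 36.6 CPM in control MemB and 5.46, 2.41 and 0.884 CPM in KI MemB. Its log2 fold change was -4.07 (SE 0.78, edgeR adjusted p = 0.00916), with -3.70 and an adjusted p of 0.0748 without control MemB replicate 1, -3.64 and 0.0580 without KI MemB replicate 3, and -3.79 and 0.133 without replicate 3 of each group. Cd5 and Cd9 had -3.85 (SE 1.5, edgeR adjusted p = 0.349) and -4.41 (SE 1.25, edgeR adjusted p = 0.188). DESeq2 called 4 of the 12, Cd5, Cd9, Myb and Zcwpw1, against 471 genes in all. Ighm was also lower in KI MemB than in control MemB, with a log2 fold change of -2.46, and it stayed called under all 24 alternatives. In B2 its value was -0.42 and not called. Its r with Dnase1l3 over the 12 libraries was 0.779. The part of a change in B-1 cell content in the Dnase1l3 difference was not tested. In plasma cells Jchain joins IgA and IgM into polymers, and it went the other way from Dnase1l3, from 10.2 CPM on average in control MemB to 141.0 CPM in KI MemB (log2 fold change 3.8, SE 0.68, edgeR adjusted p = 0.00524, or 3.47 and 0.0507 without KI MemB replicate 3). It was the only one of the 12 plasma cell genes that edgeR or DESeq2 called in this comparison, and 8 of the 12 had positive log2 fold changes. Summed plasma cell genes overlapped between groups, at 517.5 to 858.2 CPM in control MemB and 613.9 to 813.7 CPM in KI MemB.

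**Figure D4:**
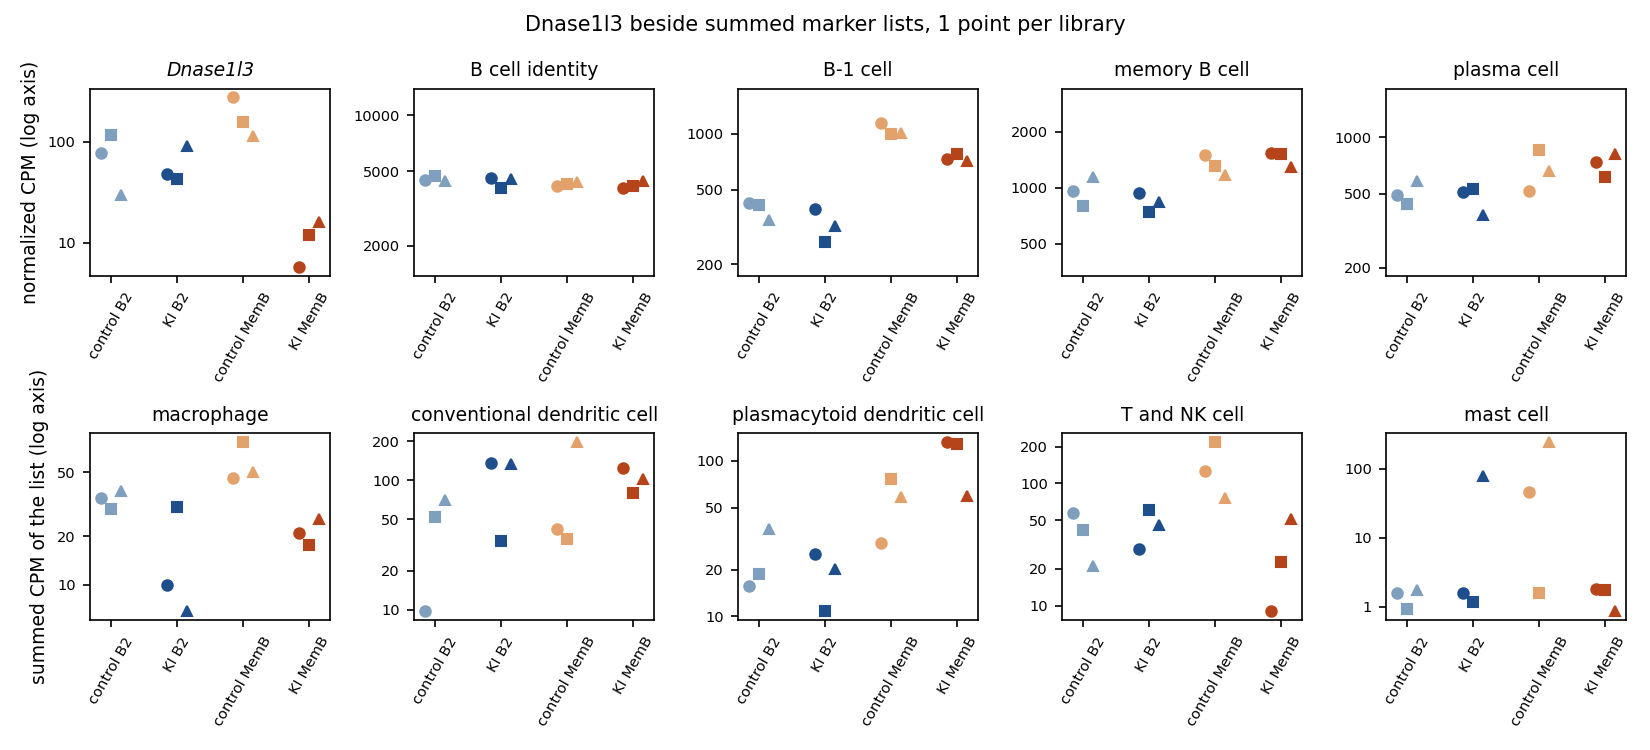
Dnase1l3 (first panel) and the summed CPM of marker lists in each library by group, on log axes that span at least 10-fold; point shape gives the replicate number. B cell identity genes stay between 4046 and 4695 CPM, and T and NK cell, B-1 cell and macrophage sums are lower in KI MemB than in control MemB.

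Over the 14 lists together, 130 of 166 genes were tested, Dnase1l3 not among them. The lists were chosen with earlier results of these data known, so a share above that of all genes can follow from that choice. In MemB, 7 (5.38%) were called between KI and control, 1 higher and 6 lower, against 42 of 14933 (0.281%) over all genes tested, 0.0804% higher and 0.201% lower. Besides Jchain, Myb and Nkg7 these included Ighd, Ccl22 and Cma1. In the fit of the 6 MemB libraries alone, Myb and Ighd lost their calls as well. The count was 4 without control MemB replicate 1, 3 without KI MemB replicate 1, 2 without KI MemB replicate 3 and 4 without replicate 3 of each group. Ighd fell from 229.9 to 90.3 CPM on average (edgeR adjusted p = 8.87e-05). In B2 none of the 130 was called by edgeR or by DESeq2, where edgeR called 1 gene in all (0.0067%), Gpr34. Between control MemB and control B2, 11 of the 130 (8.46%) were called against 0.268% of all genes (0.161% higher), Pld4 among them. These 11 became 5 or 6 without control B2 replicate 1, 2 or 3, without control MemB replicate 1 or 3, and without replicate 3 of each group. Between KI MemB and KI B2, 10 (7.69%) were called against 0.362% of all genes. Of these, Cd44, Tbx21, Spn, Batf3 and Fscn1 lost the call without replicate 3 of each group (edgeR adjusted p from 0.0537 to 0.174). The difference of the KI effects was called for 4 (3.08%) against 0.067%.

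Around Dnase1l3 on chromosome 14, 16 protein-coding genes begin or end within 500 kb, and 6 of the 15 found in the table could be tested. edgeR called none of the 6 in any comparison, with 0 at an unadjusted p below 0.05 for KI against control in MemB or B2, and DESeq2 called only Pxk, for MemB against B2 in KI. Of these, Abhd6, which encodes a monoacylglycerol lipase, lies 6.4 kb before Dnase1l3. Abhd6 had 4.55, 13.2 and 4.65 CPM in control MemB and 7.07, 3.70 and 1.21 CPM in KI MemB, with a log2 fold change of -0.90 (SE 0.95, edgeR adjusted p = 0.808). Its MemB groups overlapped, unlike those of Dnase1l3. Others tested were Kctd6 (-2.52, SE 1.56, edgeR adjusted p = 0.581), Pxk (-0.59), Rpp14 (0.67) and Pdhb (0.02).

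Genes whose pattern was most like that of Dnase1l3 were ranked by Pearson's r of log2 CPM over the 12 libraries. The measure is a description, because these points share their library, depth and group. Of 14932 genes, 4 had r above 0.9 and 1 had r below -0.9. Predicted genes and pseudogenes were counted but passed over in naming. Zfp41, a zinc finger gene (r = 0.908), Arhgef11, an activator of the GTPase RhoA (0.904), and Scn4a, a sodium channel subunit gene (0.901), led, and others were Nkg7 (0.894), Mxd4 (0.885), Fcmr, the Fc receptor for IgM (0.879), Nudt6 (0.878), Twsg1 (0.870) and Rubcnl (0.867). The least alike were Cdk1, the kinase that starts mitosis (-0.916), Gsn (-0.889), Psma6 (-0.873), Crmp1 (-0.872) and the spindle gene Aspm (-0.870).

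The 10 most alike genes had lower means in KI MemB than in control MemB, as a gene like Dnase1l3 must, and 6 of them were called, which follows from how they were ranked. All 6 calls (Arhgef11, Scn4a, Nkg7, Mxd4, Fcmr and Twsg1) were lost without KI MemB replicate 1 (edgeR adjusted p from 0.0839 to 0.239). Fcmr averaged 263.3 CPM in control MemB and 117.4 CPM in KI MemB, while its B2 means were 278.9 and 236.9 CPM. Unlike Dnase1l3, it was thus not higher in control MemB than in control B2. Mxd4, a partner of MAX, averaged 108.7 CPM in control MemB, 26.9 in KI MemB, 61.7 in control B2 and 71.2 in KI B2, which is the group order of Dnase1l3 except for the B2 pair. Cdk1 averaged 1.55 CPM in control MemB and 19.97 CPM in KI MemB, with a log2 fold change of 3.69 (SE 1.24, edgeR adjusted p = 0.306) that did not pass the test. Aspm averaged 16.9 and 98.1 CPM in these groups, with 2.54 (SE 0.53, edgeR adjusted p = 0.0206), a call lost without control MemB replicate 1 or 2, without KI MemB replicate 1 and without replicate 3 of each group (2.18 to 2.75, edgeR adjusted p from 0.0826 to 0.186). Cdk1 and Aspm were picked as least alike, so their higher level in KI MemB also follows from the ranking.

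**Figure D5:**
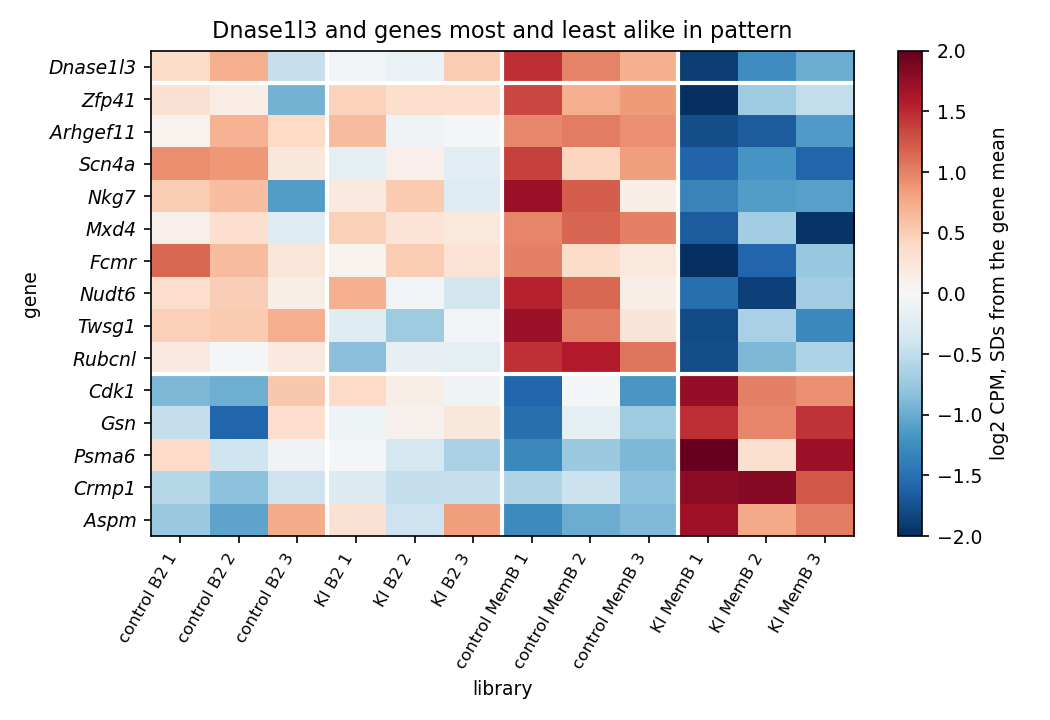
Log2 CPM of Dnase1l3 (top row), 9 of the 10 genes most like it and the 5 least like it in each of the 12 libraries (columns), coloured by the distance from the gene's mean in SDs. The 9 most alike genes shown have their lowest group mean in KI MemB, and the 5 least alike genes, Cdk1 and Aspm among them, have their highest there.

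When each library was taken as its deviation from its group mean, which sets the group differences aside, other genes led. These were Mroh2a (r = 0.941), Prpf4 (0.938), Arhgef12 (0.919), Vps37a (0.913) and Kics2 (0.912). Over the 12 libraries as they stand, their r with Dnase1l3 ran from -0.237 for Vps37a to 0.530 for Kics2. Of the 10 most alike genes, Zfp41 (0.798) and Fcmr (0.704) were among those with r above 0.7 within groups, while Mxd4 had 0.200 and Arhgef11 had 0.243. Among listed genes, Pld4 had r = 0.678 within groups and 0.151 over the libraries as they stand.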

How the data were processed

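Bulk RNAseq of 12 libraries of sorted PerC B cells was analysed, 3 per genotype and cell type, grouped by the labels. Per the submitters' processing notes, reads were checked with FastQC 0.12.1, trimmed with cutadapt 4.5, aligned to mm39 with STAR 2.7.11a and counted with RSEM 1.3.3. The authors deposited RSEM expected counts per gene, not normalized, in a single table, where 32.2% of non-zero values are not whole because RSEM shares reads between similar genes. All columns matched a library by name (0 without one). Counts were rounded. The 812 entries without a gene symbol, 0.605% to 0.689% of each library, were left out of library sizes and tests.

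edgeR 4.0.16 in R 4.3.3 was run with TMM, filterByExpr at a minimum count of 10, 4 group means and robust quasi-likelihood tests, with Benjamini-Hochberg adjustment over the 14933 genes left. A gene was called when its adjusted p was below 0.05 with a log2 fold change beyond 1. The SE is the log2 fold change divided by the square root of F. Log2 CPM used a prior count of 2. Per-length levels used GENCODE M39 exon lengths and left out 3 ribosomal RNA genes. On simulated counts for KI against control MemB, over 14933 genes, the edgeR step recovered 64 of 200 changed genes (32.0%) with the right sign in each case, and 4 of its 68 calls were false. Replicates of a group correlated between 0.803 and 0.837 across genes (log2 CPM, 12 pairs).

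Dnase1l3, the lists and the rules were chosen with earlier results of these data known. Named genes were Dnase1l3, the DNase I family, called genes and the most abundant members of each list, neighbours within 500 kb, the 10 most and 5 least correlated genes, the 5 most correlated within groups, Gpr34, Ighd and Ighm. Other named members were chosen after their values were seen. Amplified reads carry no molecular identifiers, so intervals cover counting error only, and p-values measure the spread between these libraries. Alternatives were DESeq2 1.42.0, other normalizations and filters, genes left out, non-robust fits, a replicate block, 6 libraries per fit and each library left out. Ddx58 and Tpsb2 had no row under those names and were not analysed here. Some genes that these rules name are not reported here.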

Additional observations from a re-analysis of the deposited data

Results flagged for a closer look

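For 4 listed genes the KI effect in MemB differed from that in B2 by the interaction test of edgeR, each with an adjusted p of 0.0442. The difference, MemB minus B2, was -1.23 on the log2 scale for Ighd, which had -1.35 in MemB and -0.12 in B2. It was -5.04 for Myb, with -4.07 in MemB and 0.97 in B2. It was 4.42 for Jchain, with 3.8 in MemB and -0.63 in B2. It was -9.45 for Cma1, a mast cell protease gene, with -6.4 in MemB and 3.05 in B2. The Cma1 difference was -6.43 without KI B2 replicate 3, which had 77.7 CPM of mast cell markers against 0.912 to 1.76 CPM in the other B2 libraries, and -4.99 without replicate 3 of each group. Over all genes tested, 10 were called in this comparison (0.067%). The calls were lost in 13 of 23 alternatives for Ighd, 15 of 24 for Myb and 13 of 24 for both Jchain and Cma1. The Jchain difference was 2.94 without control B2 replicate 1. Adjusted p ranged over the alternatives from 0.00509 to 0.371 for Ighd, 1.65e-05 to 0.362 for Myb, 2.08e-05 to 0.299 for Jchain and 9.9e-08 to 0.616 for Cma1. Dnase1l3 was chosen by the same difference (-3.69) and was not tested.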

How the results depend on the processing

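Dnase1l3 kept its direction under all 25 alternatives in MemB, where KI against control ranged from -4.60 to -3.58 as libraries were left out, and from -4.02 to -3.96 otherwise. In B2 it ranged from -1.09 to 0.17, and it reversed only without control B2 replicate 2 (0.17). MemB against B2 ranged from 0.86 to 1.76 in control and from -2.77 to -2.0 in KI, and the difference of the KI effects from -4.17 to -3.28. Counts of calls depended far more on the processing. DESeq2 called 471 genes in MemB, 41 in B2, 392 for MemB against B2 in control and 393 in KI. Without a low-count filter edgeR called 89, 8, 96 and 104. Non-robust fits called 21 in MemB and 24 for MemB against B2 in control, and a fit of 6 libraries called 12 in MemB. With libraries left out, these 4 counts ranged from 15 to 49, 1 to 2, 18 to 43 and 27 to 61. Of listed genes, DESeq2 called 16 in MemB and 18 for MemB against B2 in control, no filter gave 11 in MemB, non-robust fits gave 4 and 7, and 6 libraries gave 1 and 5. With libraries left out, listed counts ranged from 2 to 7 and from 5 to 12. Replicate numbers were not taken as pairs, since deviations of same-numbered libraries correlated at most 0.0334, although replicate 3 shared a sex in all groups. With the replicate number as a block, Dnase1l3 had -4.02 in MemB, -0.29 in B2, 1.31 and -2.43 for MemB against B2 in control and KI, and -3.73 for the difference, and 4 listed genes were called in MemB. The 2 alternatives chosen after seeing the data, library size from B cell identity genes and entries without a symbol kept, gave -4.01 and -4.0 in MemB. The causes of these changes were not tested. Of 696 single-gene values other than with libraries left out, 635 kept their side of the threshold and 0 reversed. The lowest Dnase1l3 library had 167 counts, so counting error did not limit its direction in MemB. A floor from counts carried over between libraries was not tested.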
